A study of Homo sapiens with 15 samples.

Results

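Genes of the unfolded protein response and the secretory pathway were followed across 9 human lymphoid cell lines, measured with 15 Affymetrix U133 Plus 2.0 arrays. A probe set was used where the platform annotation gave it a single symbol that was one of 37 listed genes, and where a gene had several, the brightest one on average stood for it. That left 36 genes on 87 probe sets, out of 19775 genes on the array. SYVN1, a ubiquitin ligase of the endoplasmic reticulum, was matched only by a probe set shared with another gene and was not analysed here.

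The Hodgkin lines were L428, L1236, KM-H2, HDLM2, L540 and its subline L540Cy, all labelled as classical Hodgkin lymphoma (10 arrays). The non-Hodgkin lines were Reh, labelled as acute lymphoblastic leukaemia, Namalwa, a Burkitt lymphoma line, and SU-DHL-4, labelled as B cell non-Hodgkin lymphoma (5 arrays). No treatment is labelled for any line. The design text gives biological duplicates for 6 lines and a single array for L540, L540Cy and SU-DHL-4. A cell line stands for 1 patient, so the lines and not the arrays are the replicates of a disease class, and L540 and L540Cy count as 1 line of origin.

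The endoplasmic reticulum folds membrane and secreted proteins, and the unfolded protein response adjusts its capacity when unfolded proteins accumulate there. The sensor kinase IRE1, encoded by ERN1, splices the mRNA of XBP1. The sensor kinase PERK, encoded by EIF2AK3, slows translation and favours translation of ATF4, while ATF6 is cleaved and enters the nucleus. These arms induce chaperones such as HSPA5, disulfide isomerases, and the machinery that returns misfolded proteins to the cytosol for degradation. In the B lineage the pathway is best known from plasma cells, which secrete antibody. The arrays measured mRNA levels, not splicing, phosphorylation or cleavage.

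The promoters are shown first because the ER stress response element, ERSE, is the known binding site through which ATF6 and XBP1 act on many of these genes. RefSeq windows of 250 bases upstream of annotated starts (assembly GRCh38.p14) were available for 34 of the 37 listed genes. They were searched on both strands for ERSE (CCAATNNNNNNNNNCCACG), ERSE-II (ATTGGNCCACG), the unfolded protein response element (TGACGTGG) and the C/EBP-ATF response element of ATF4 (TTGCATCA). Capitals mark the letters that matched a motif on either strand, and each sequence runs 5′ to 3′ along the strand of its gene. The windows of HSPA5, HYOU1, HERPUD1 and HSP90B1 are given whole.
HSPA5, chr9:125241344-125241593, minus strand: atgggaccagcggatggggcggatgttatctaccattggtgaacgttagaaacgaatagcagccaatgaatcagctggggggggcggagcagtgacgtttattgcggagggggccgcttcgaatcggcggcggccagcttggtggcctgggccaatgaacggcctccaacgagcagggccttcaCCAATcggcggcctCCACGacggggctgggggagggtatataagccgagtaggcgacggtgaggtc
HYOU1, chr11:119057206-119057455, minus strand: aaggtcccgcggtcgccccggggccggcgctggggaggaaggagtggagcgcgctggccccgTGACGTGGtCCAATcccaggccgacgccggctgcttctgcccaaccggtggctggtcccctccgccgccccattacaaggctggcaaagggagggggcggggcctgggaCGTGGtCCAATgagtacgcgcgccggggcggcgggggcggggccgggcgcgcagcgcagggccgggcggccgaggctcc
HERPUD1, chr16:56931892-56932141, plus strand: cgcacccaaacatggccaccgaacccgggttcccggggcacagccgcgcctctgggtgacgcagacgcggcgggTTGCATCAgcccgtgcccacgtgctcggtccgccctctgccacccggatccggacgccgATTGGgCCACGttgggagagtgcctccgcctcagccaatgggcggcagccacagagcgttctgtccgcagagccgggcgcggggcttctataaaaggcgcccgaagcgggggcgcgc
HSP90B1, chr12:103930160-103930409, plus strand: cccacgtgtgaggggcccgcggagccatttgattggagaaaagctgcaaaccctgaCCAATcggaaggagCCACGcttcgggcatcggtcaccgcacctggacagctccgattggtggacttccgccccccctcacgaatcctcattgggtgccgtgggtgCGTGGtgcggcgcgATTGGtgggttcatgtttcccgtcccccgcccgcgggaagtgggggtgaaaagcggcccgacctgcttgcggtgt

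For the other 5 genes with an ERSE or ERSE-II match, the stretch around it shows the same blocks in different flanks.
CALR, chr19:12938372-12938414, plus strand: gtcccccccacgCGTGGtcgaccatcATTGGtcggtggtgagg
CANX, chr5:179698766-179698808, plus strand: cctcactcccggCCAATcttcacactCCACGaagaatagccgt
CRELD2, chr22:49918542-49918584, plus strand: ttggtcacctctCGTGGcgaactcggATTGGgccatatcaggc
PDIA6, chr2:10812841-10812883, minus strand: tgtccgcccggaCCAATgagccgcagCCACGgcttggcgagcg
SDF2L1, chr22:21642102-21642136, plus strand: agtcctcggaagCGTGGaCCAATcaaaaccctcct

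ERSE was matched in CALR, CANX, CRELD2, HSP90B1, HSPA5 and PDIA6, and in 0.074% of the 35116 windows searched. The search left out chr8, which holds none of the listed genes. The ERSE of HSPA5 began 66 bases before the start, and HSP90B1 held 1 in each orientation. ERSE-II was matched in HERPUD1, HYOU1 and SDF2L1, and in 0.0513% of all windows. HYOU1 held 2 ERSE-II matches, and the upstream one overlapped the unfolded protein response element. Taken over genes, 9 of the 34 searched had either ERSE form, against 43 of 27305 genes (0.157%). The unfolded protein response element was also matched in SSR3 (0.612% of all windows), and the ATF4 element in HERPUD1 (0.772% of all windows). A match is a description of the letters and does not show binding.

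The 36 genes were abundant in these cells. The median of their means over the 15 arrays was 10.59 log2 signal, against 6.53 for all genes, and 31 of the 36 lay above the 75th percentile of all genes. Array medians lay between 5.501 and 5.568. Namalwa replicate 2 had the lowest upper quartile, 7.312, against 7.536 to 7.716 in the 14 other arrays. Duplicates of a line differed by an SD over the 36 genes of 0.23 log2 in L428 to 0.41 in HDLM2, and over all genes by 0.625 in Reh and 0.523 in Namalwa, against 0.24 to 0.361 in the 4 other duplicated lines. Reh replicate 1 stood apart: over 22 genes that SU-DHL-4 expressed more than 3 log2 above all other arrays with Reh replicate 1 set aside, its signal was higher than that of Reh replicate 2, with a median gap of 3.995 log2 (0.543 to 7.351). None of the 36 genes was among those 22. CD79A, a B cell receptor subunit, and TNFRSF8, the CD30 antigen, followed the labels, with CD79A at 5.94 in Hodgkin and 12.30 in non-Hodgkin lines and TNFRSF8 at 11.01 in Hodgkin and 6.08 in non-Hodgkin lines. SDC1, 1 of 9 plasma cell markers, lay between 4.79 and 5.86 in all 15 arrays, but the 9 did not move together. Their Hodgkin minus non-Hodgkin differences ran from -7.43 to 4.95 log2, with 1 called higher and 2 lower (0.759% and 0.612% of all genes). In Namalwa 5 of the 9 were called higher and 1 lower (11.3% and 16.5% of all genes). The mean level of the 9 was 5.84 to 7.51 in Hodgkin arrays and 6.57 to 9.08 in non-Hodgkin arrays, and their part in the results was not tested. Each array averaged many cells, so fewer expressing cells and less RNA per cell cannot be told apart.

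**Figure D1:**
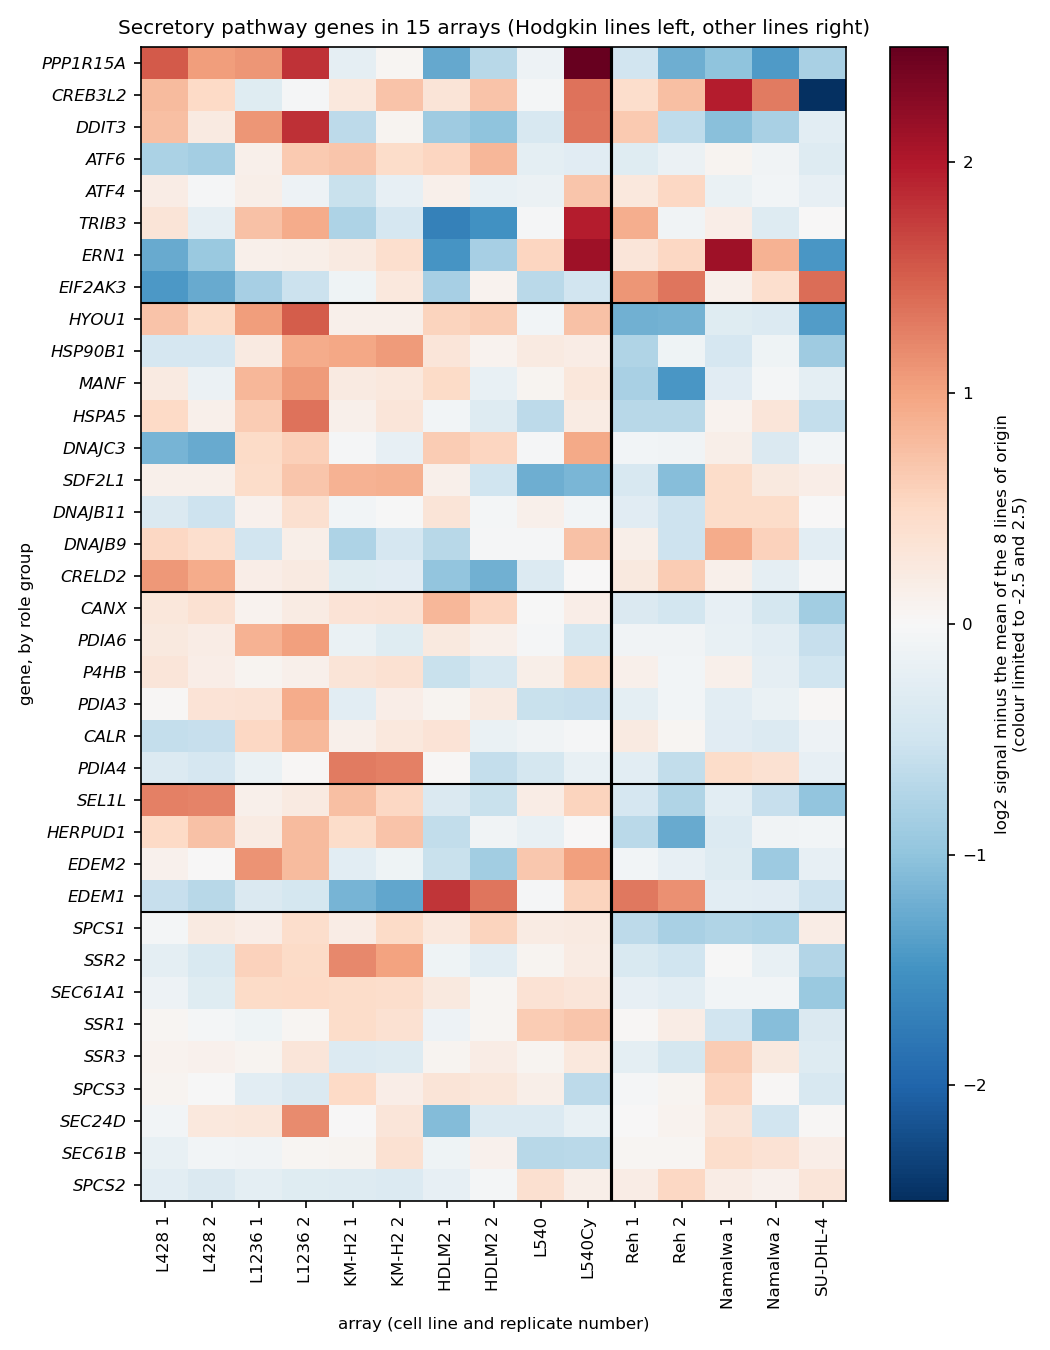
Each cell is the log2 signal of 1 of the 36 genes in 1 array, minus that gene's mean over the 8 lines of origin. Genes are grouped by role and sorted by their Hodgkin minus non-Hodgkin difference. The L1236 columns are mostly red in the chaperone block, CREB3L2 is deep blue in SU-DHL-4 alone, and L540Cy differs from L540 in the top block.

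The first comparison asked whether the pathway differed between Hodgkin and non-Hodgkin lines. The largest positive differences were those of the chaperone HYOU1, the stress phosphatase subunit PPP1R15A and the transcription factor CREB3L2, and the largest negative one was that of the sensor EIF2AK3. None of the 36 genes passed the test. Over lines of origin (5 Hodgkin against 3 non-Hodgkin), limma with Benjamini-Hochberg adjustment over all genes called 0 of 36 higher and 0 of 36 lower, against 0.759% higher and 0.612% lower of all 19775 genes. At an unadjusted p under 0.05, 8 of 36 were higher, against 7.03% of all genes, and 2 of 36 were lower, against 7.18%. The 8 were CANX, HSP90B1, HYOU1, MANF, PPP1R15A, SEC61A1, SEL1L and SPCS1, and the 2 were EIF2AK3 and SPCS2.

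Of the 36 differences 26 were positive and 10 negative, with a median of 0.23 log2, against -0.02 for all genes. The 5 Hodgkin line means lay above all 3 non-Hodgkin ones for CANX, HYOU1 and MANF, as they did for 5.17% of all genes. They lay below all 3 for EIF2AK3, as for 5.5% of all genes. Both shares, 3 of 36 (8.3%) above and 1 of 36 (2.8%) below, are near those of all genes. By role, 4 of 8 sensors and transcription factors were positive (median 0.13), 6 of 9 chaperones (0.13), 6 of 6 lectin chaperones and disulfide isomerases (0.23), 3 of 4 degradation genes (0.59) and 7 of 9 translocon, signal peptidase and coat genes (0.12).

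**Figure D2:**
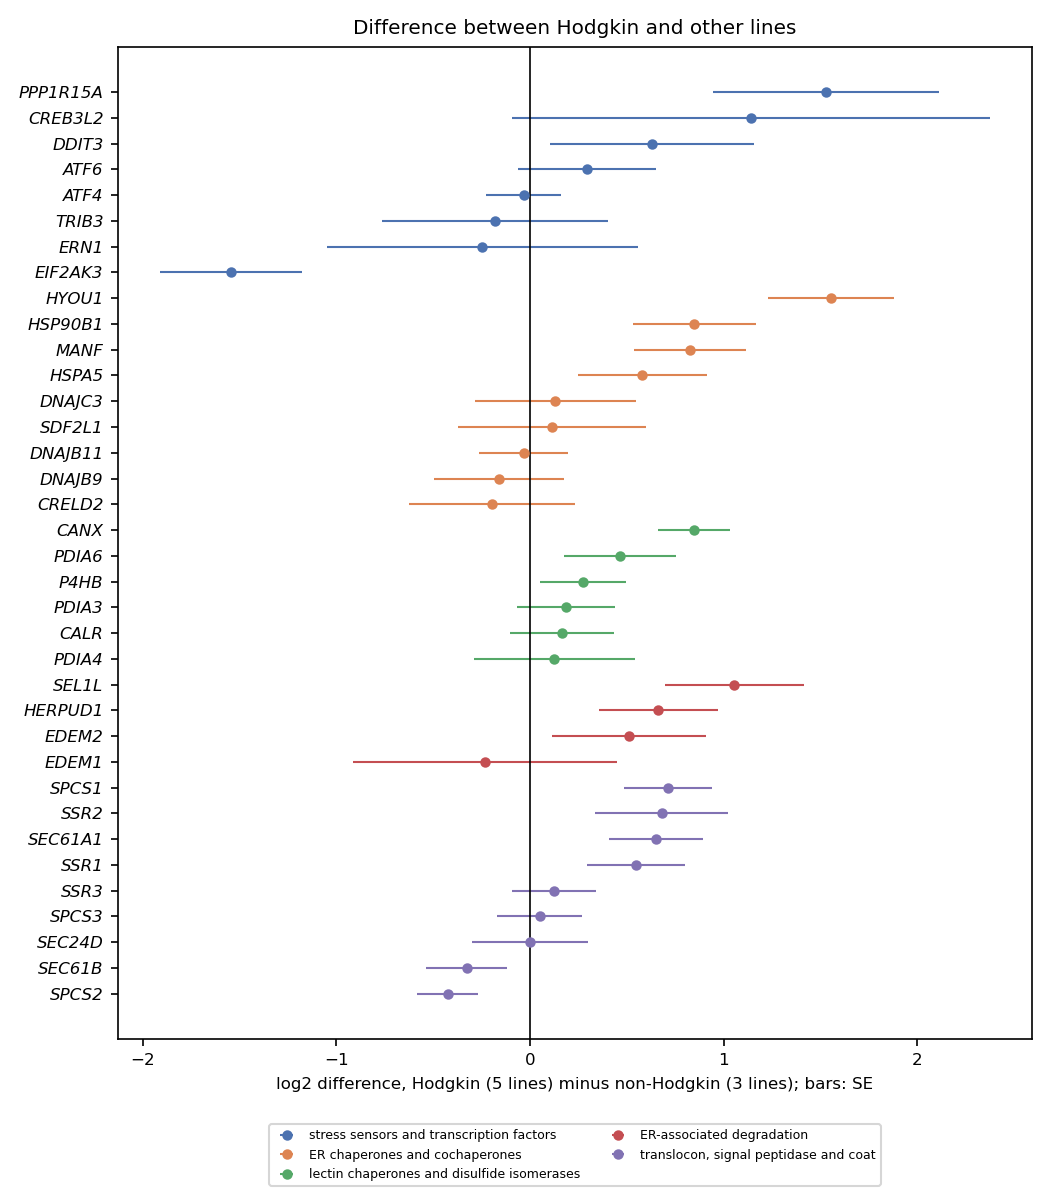
Points are log2 differences, Hodgkin (5 lines of origin) minus non-Hodgkin (3 lines), and bars are standard errors. HYOU1 (1.56), PPP1R15A (1.53) and EIF2AK3 (-1.54) lie farthest from 0, while CREB3L2 has the widest bar (SE 1.24).

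Of the 3 sensors, EIF2AK3 gave the largest difference between the classes. EIF2AK3, which encodes PERK, measured 8.41 and 8.59 in L428, 9.03 and 9.31 in L1236, 9.75 and 10.11 in KM-H2, 9.02 and 9.94 in HDLM2, 9.18 in L540 and 9.37 in L540Cy. In the non-Hodgkin lines it measured 10.95 and 11.19 in Reh, 9.98 and 10.27 in Namalwa and 11.25 in SU-DHL-4. The line means of the Hodgkin lines, 8.50 to 9.93, did not overlap those of the other lines, 10.13 to 11.25, although KM-H2 replicate 2 exceeded Namalwa replicate 1. EIF2AK3 averaged 9.27 ± 0.52 in the Hodgkin lines and 10.81 ± 0.60 in the non-Hodgkin lines (SD, n = 5 and 3 lines), a difference of -1.54 ± 0.37 (SE) (limma, adjusted p = 0.112). With the mean of both probe sets the difference was -0.79, and the second, dim probe set had r = -0.10 with the first over the 8 lines.

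ERN1, which encodes IRE1, spread widely within both classes. It measured 5.33 and 5.66 in L428, 6.72 and 6.75 in L1236, 6.82 and 7.01 in KM-H2, 5.12 and 5.75 in HDLM2, 7.14 in L540 and 8.71 in L540Cy. The non-Hodgkin lines gave 6.89 and 7.12 in Reh, 8.71 and 7.47 in Namalwa and 5.14 in SU-DHL-4. L540Cy and Namalwa replicate 1 were the highest arrays, L428, HDLM2 and SU-DHL-4 were low, and the classes overlapped. Its difference was -0.25 ± 0.80 (SE), with adjusted p = 0.915 in limma. A second ERN1 probe set, nearly as bright (mean 6.637, against 6.689), gave a difference of the opposite sign, 0.545, with L540 and L540Cy as the highest line of origin. The third had the same sign but r = 0.233 with the one used.

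ATF6, the sensor that is itself a transcription factor precursor, measured 8.15 and 8.08 in L428, 9.06 and 9.60 in L1236, 9.62 and 9.39 in KM-H2, 9.47 and 9.77 in HDLM2, 8.70 in L540 and 8.65 in L540Cy. The non-Hodgkin lines gave 8.64 and 8.78 in Reh, 9.02 and 8.85 in Namalwa and 8.62 in SU-DHL-4. L428 was lowest and HDLM2 highest, so the Hodgkin lines enclosed the others. The difference was 0.29 ± 0.36 (SE) (limma, adjusted p = 0.748). A second ATF6 probe set, nearly as bright (mean 8.859, against 8.96), gave a difference of 0.706. It had r = 0.676 with the one used and was highest in L1236 and lowest in SU-DHL-4. The remaining, dimmer probe sets were lowest in L428.

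Among the transcription factors, ATF4, which PERK signalling brings to translation, was abundant and even. It measured 12.79 and 12.58 in L428, 12.75 and 12.47 in L1236, 12.05 and 12.40 in KM-H2, 12.74 and 12.42 in HDLM2, 12.47 in L540 and 13.31 in L540Cy. Non-Hodgkin values were 12.88 and 13.12 in Reh, 12.44 and 12.55 in Namalwa and 12.40 in SU-DHL-4. The classes overlapped, and the range of line means was 0.77 log2. Its difference was -0.03 ± 0.19 (SE) (limma, adjusted p = 0.955). Its mRNA level does not report translation.

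DDIT3, which encodes the CHOP factor induced downstream of ATF4, measured 10.16 and 9.63 in L428, 10.52 and 11.23 in L1236, 8.76 and 9.47 in KM-H2, 8.51 and 8.40 in HDLM2, 9.01 in L540 and 10.75 in L540Cy. In the non-Hodgkin lines it was 10.06 and 8.77 in Reh, 8.37 and 8.60 in Namalwa and 9.14 in SU-DHL-4. L1236, L540Cy, L428 replicate 1 and Reh replicate 1 were at or above 10 log2, and the 2 Reh arrays differed by 1.29. TRIB3, a pseudokinase induced by ATF4 and CHOP, measured 10.53 and 9.99 in L428, 10.94 and 11.13 in L1236, 9.44 and 9.79 in KM-H2, 8.52 and 8.69 in HDLM2, 10.17 in L540 and 12.16 in L540Cy. The non-Hodgkin lines had 11.10 and 10.12 in Reh, 10.37 and 9.88 in Namalwa and 10.21 in SU-DHL-4. HDLM2 was lowest and L540Cy highest in TRIB3, and both genes overlapped between the classes. The difference was 0.63 ± 0.53 (SE) for DDIT3 (limma, adjusted p = 0.632) and -0.18 ± 0.58 (SE) for TRIB3 (limma, adjusted p = 0.915).

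PPP1R15A, also GADD34, measured 9.60 and 9.12 in L428, 9.18 and 9.89 in L1236, 7.86 and 8.11 in KM-H2, 6.79 and 7.39 in HDLM2, 7.94 in L540 and 10.59 in L540Cy. In the non-Hodgkin lines it measured 7.60 and 6.86 in Reh, 7.07 and 6.66 in Namalwa and 7.26 in SU-DHL-4. L428, L1236 and L540Cy lay above 9 log2, and HDLM2 lay among the non-Hodgkin values. PPP1R15A averaged 8.65 ± 1.07 in the Hodgkin lines and 7.12 ± 0.22 in the non-Hodgkin lines (SD, n = 5 and 3 lines), a difference of 1.53 ± 0.58 (SE) (limma, adjusted p = 0.294).

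CREB3L2, a membrane-bound factor related to ATF6, measured 8.91 and 8.63 in L428, 7.83 and 8.10 in L1236, 8.39 and 8.83 in KM-H2, 8.45 and 8.85 in HDLM2, 8.08 in L540 and 9.49 in L540Cy. In the non-Hodgkin lines it was 8.57 and 8.89 in Reh, 10.09 and 9.43 in Namalwa and 3.755 in SU-DHL-4. The single SU-DHL-4 array stood far below all 14 others, and the Hodgkin line means lay between those of Namalwa and SU-DHL-4. Its difference of 1.14 ± 1.24 (SE) (adjusted p = 0.724 in limma) was -0.69 without SU-DHL-4, so its direction rests on that array. The other 2 probe sets of CREB3L2 gave a difference of the opposite sign.

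Of the chaperones, HSPA5, the master Hsp70 of the endoplasmic reticulum also known as BiP, measured 13.21 and 12.84 in L428, 13.35 and 14.08 in L1236, 12.84 and 13.03 in KM-H2, 12.64 and 12.40 in HDLM2, 12.06 in L540 and 12.91 in L540Cy. Among non-Hodgkin lines it was 12.03 and 12.02 in Reh, 12.80 and 13.02 in Namalwa and 12.13 in SU-DHL-4. L1236 was highest, and Reh, SU-DHL-4 and L540 shared the lowest values, 12.02 to 12.13. HSPA5 averaged 12.94 ± 0.50 in the Hodgkin lines and 12.35 ± 0.49 in the non-Hodgkin lines (SD, n = 5 and 3 lines), and its difference of 0.58 ± 0.33 (SE) did not pass (limma, adjusted p = 0.488).

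HYOU1, an Hsp110-type exchange factor for HSPA5 and the holder of 2 ERSE-II matches above, came nearest to the threshold. It measured 11.51 and 11.27 in L428, 11.83 and 12.31 in L1236, 10.92 and 10.92 in KM-H2, 11.35 and 11.41 in HDLM2, 10.73 in L540 and 11.52 in L540Cy. The non-Hodgkin arrays gave 9.60 and 9.62 in Reh, 10.49 and 10.45 in Namalwa and 9.39 in SU-DHL-4. The 5 Hodgkin line means lay above all 3 non-Hodgkin ones, as for 5.17% of all genes. HYOU1 averaged 11.38 ± 0.44 in the Hodgkin lines and 9.82 ± 0.57 in the non-Hodgkin lines (SD, n = 5 and 3 lines), a 2.94-fold difference of 1.56 ± 0.33 (SE) (limma, adjusted p = 0.0784). Over the alternatives its difference ran from 1.34 to 1.88 and its adjusted p from 0.00638 to 0.233. HDLM2 and L540 are known as T cell derived, and with the B cell derived Hodgkin lines L428, L1236 and KM-H2 alone the difference was 1.64 (limma, adjusted p = 0.205).

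DNAJB9, an Hsp40 cochaperone also called ERdj4, measured 9.74 and 9.64 in L428, 8.74 and 9.37 in L1236, 8.45 and 8.81 in KM-H2, 8.52 and 9.21 in HDLM2, 9.21 in L540 and 9.96 in L540Cy. The non-Hodgkin arrays gave 9.37 and 8.71 in Reh, 10.16 and 9.80 in Namalwa and 8.96 in SU-DHL-4. Namalwa and L540Cy were high, KM-H2 was low, and the classes overlapped. CRELD2, a secreted disulfide isomerase-like protein, measured 10.66 and 10.50 in L428, 9.74 and 9.81 in L1236, 9.28 and 9.29 in KM-H2, 8.60 and 8.39 in HDLM2, 9.24 in L540 and 9.59 in L540Cy. Its non-Hodgkin values were 9.82 and 10.23 in Reh, 9.71 and 9.36 in Namalwa and 9.56 in SU-DHL-4. L428 was highest and HDLM2 lowest, with the non-Hodgkin lines between them. The differences were -0.16 ± 0.33 (SE) for DNAJB9 and -0.19 ± 0.43 (SE) for CRELD2.

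The remaining chaperones were HSP90B1 (also GRP94) at 0.85 ± 0.32 (SE), MANF, a secreted survival factor, at 0.83 ± 0.29 (SE), and DNAJC3, an inhibitor of PERK signalling, at 0.13 ± 0.41 (SE). SDF2L1, a partner of DNAJB11, gave 0.12 ± 0.49 (SE), and DNAJB11 itself, an HSPA5 cochaperone, gave -0.03 ± 0.23 (SE). Their adjusted p-values in limma lay between 0.262 and 0.962.

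CANX, the membrane lectin that holds glycoproteins for folding, measured 13.16 and 13.24 in L428, 12.96 and 13.07 in L1236, 13.20 and 13.23 in KM-H2, 13.70 and 13.41 in HDLM2, 12.86 in L540 and 13.03 in L540Cy. In the non-Hodgkin lines it measured 12.51 and 12.42 in Reh, 12.67 and 12.43 in Namalwa and 11.996 in SU-DHL-4. The 5 Hodgkin line means of CANX lay above all 3 non-Hodgkin ones, as for 5.17% of all genes, with HDLM2 highest and SU-DHL-4 lowest. CANX averaged 13.18 ± 0.24 in the Hodgkin lines and 12.34 ± 0.30 in the non-Hodgkin lines (SD, n = 5 and 3 lines), a difference of 0.85 ± 0.18 (SE) (limma, adjusted p = 0.0872).

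PDIA4, a disulfide isomerase, was set apart by 1 line. It measured 9.59 and 9.52 in L428, 9.76 and 9.96 in L1236, 11.23 and 11.19 in KM-H2, 9.97 and 9.34 in HDLM2, 9.49 in L540 and 9.75 in L540Cy. Non-Hodgkin values were 9.67 and 9.31 in Reh, 10.39 and 10.30 in Namalwa and 9.72 in SU-DHL-4. KM-H2 was the highest line with a mean of 11.21, Namalwa came next at 10.35, and the classes overlapped. Its second probe set gave a difference of the opposite sign (-0.10, against 0.13). CALR, the soluble partner of CANX, and the isomerases PDIA3, PDIA6 and P4HB differed by 0.16 to 0.47 log2, with adjusted p between 0.521 and 0.812 in limma.

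In ER-associated degradation, HERPUD1, a scaffold of the ubiquitin ligase complex whose promoter carries ERSE-II and the ATF4 element, measured 11.87 and 12.10 in L428, 11.58 and 12.16 in L1236, 11.82 and 12.09 in KM-H2, 10.75 and 11.28 in HDLM2, 11.19 in L540 and 11.38 in L540Cy. Among non-Hodgkin lines it was 10.70 and 10.12 in Reh, 11.03 and 11.29 in Namalwa and 11.30 in SU-DHL-4. Its lowest line was Reh, and HDLM2 overlapped Namalwa and SU-DHL-4. The difference was 0.66 ± 0.31 (SE) (limma, adjusted p = 0.392), and the second, dimmer probe set had the opposite sign. SEL1L, the adaptor of the same complex, measured 11.53 and 11.51 in L428, 10.39 and 10.49 in L1236, 11.01 and 10.77 in KM-H2, 9.91 and 9.71 in HDLM2, 10.44 in L540 and 10.83 in L540Cy. Its non-Hodgkin values were 9.84 and 9.52 in Reh, 10.00 and 9.69 in Namalwa and 9.28 in SU-DHL-4. L428 was highest and SU-DHL-4 lowest, but HDLM2 lay among the non-Hodgkin values, at a difference of 1.06 ± 0.36 (SE) (adjusted p = 0.252 in limma).

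EDEM1, a mannosidase-like protein that marks glycoproteins for degradation, measured 9.37 and 9.25 in L428, 9.59 and 9.52 in L1236, 8.79 and 8.64 in KM-H2, 11.73 and 11.29 in HDLM2, 9.92 in L540 and 10.51 in L540Cy. Non-Hodgkin values were 11.26 and 11.09 in Reh, 9.69 and 9.65 in Namalwa and 9.43 in SU-DHL-4. The HDLM2 and Reh arrays stood above all others, and each belongs to a different class. The related EDEM2 differed by 0.51 ± 0.40 (SE), with its highest line means in L1236 (8.86) and in L540 with L540Cy (8.75).

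Among translocation and transport genes, SSR2, a subunit of the translocon-associated complex, measured 11.39 and 11.25 in L428, 12.22 and 12.12 in L1236, 12.84 and 12.65 in KM-H2, 11.53 and 11.38 in HDLM2, 11.70 in L540 and 11.84 in L540Cy. Among non-Hodgkin lines it was 11.26 and 11.13 in Reh, 11.63 and 11.45 in Namalwa and 10.90 in SU-DHL-4. KM-H2 was highest, L1236 next and SU-DHL-4 lowest. SEC24D, a cargo adaptor of the COPII coat, measured 8.09 and 8.41 in L428, 8.45 and 9.35 in L1236, 8.16 and 8.47 in KM-H2, 7.07 and 7.82 in HDLM2, 7.82 in L540 and 7.97 in L540Cy. Its non-Hodgkin values were 8.16 and 8.26 in Reh, 8.48 and 7.68 in Namalwa and 8.19 in SU-DHL-4. The classes had the same mean (8.16), and the lowest value was HDLM2 replicate 1. The other members of the group ran from -0.42 ± 0.16 (SE) for the signal peptidase subunit SPCS2 to 0.71 ± 0.23 (SE) for its partner SPCS1, with SEC61A1, the translocation channel, at 0.65 ± 0.24 (SE), SSR1, a partner of SSR2, at 0.55 ± 0.25 (SE), and SEC61B, SSR3 and SPCS3 in between. The 3 other probe sets of SSR3 gave a difference of the opposite sign. The 2 other probe sets of SPCS3 gave 0.77 and 0.33, against 0.05, and had r = 0.11 and -0.38 with the one used. Line means of SPCS1 were 12.53 to 12.85 in the Hodgkin lines, against 11.71 in Reh, 11.67 in Namalwa and 12.62 in SU-DHL-4. Without SU-DHL-4 its difference was 1.02, with adjusted p = 0.0195 in limma.

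**Figure D3:**
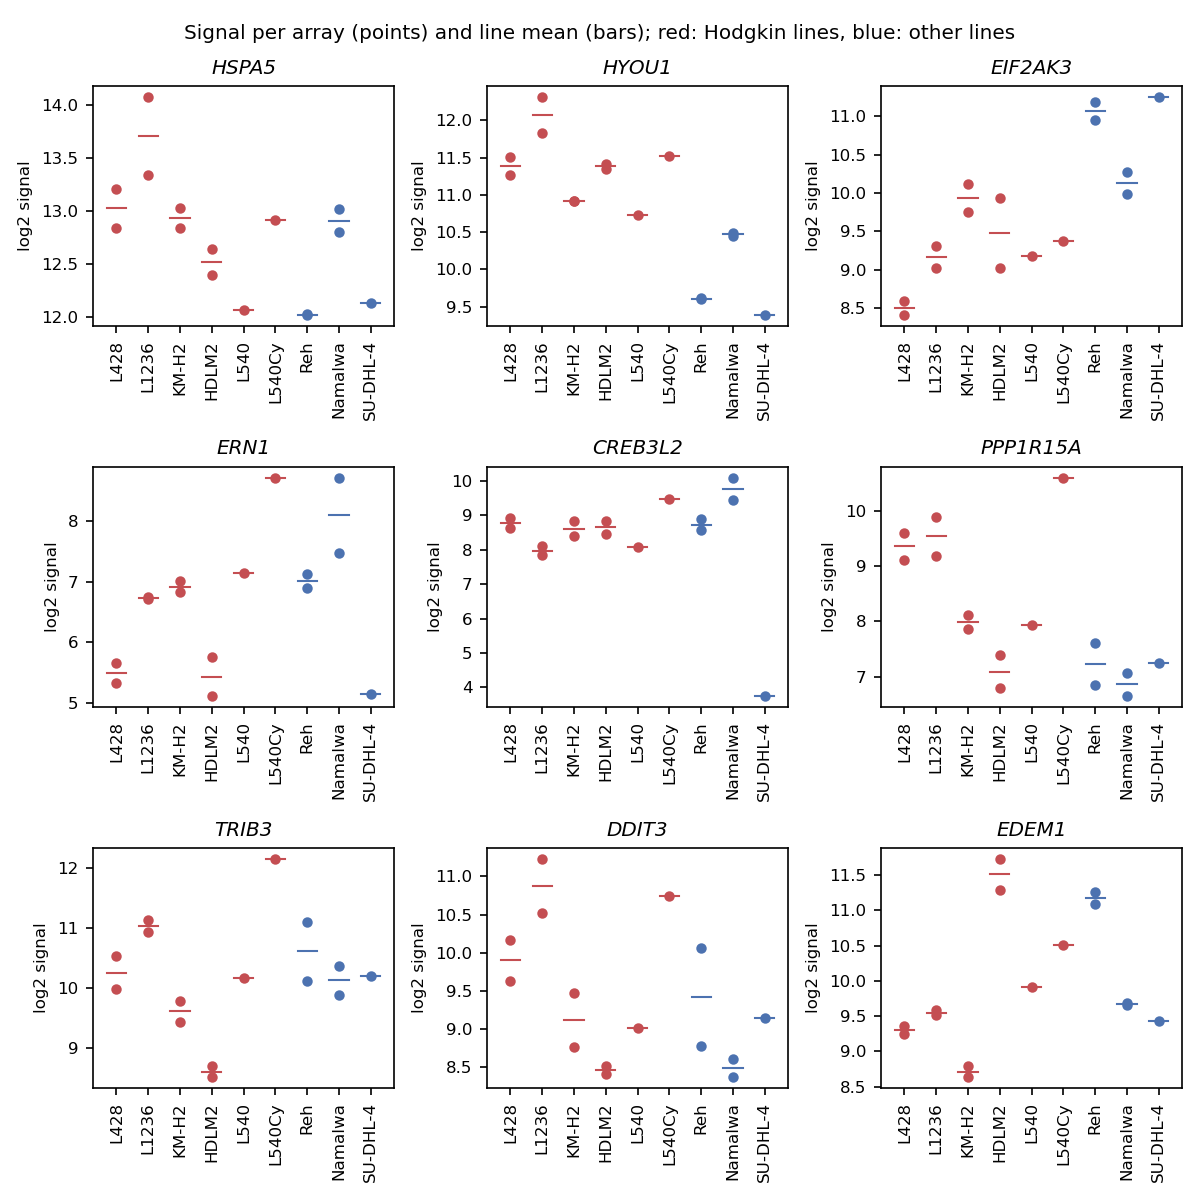
Points are single arrays and short bars are line means, in log2 signal, for 9 genes with Hodgkin lines (red) left of the other lines (blue). The HYOU1 line means of the Hodgkin lines lie above those of the other lines, as for 5.17% of all genes. L540Cy exceeds L540 in ERN1, PPP1R15A, TRIB3 and DDIT3, and SU-DHL-4 has a CREB3L2 signal of 3.755.

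The second comparison asked how far the lines themselves differ. Nearly every gene of the pathway differed among the 9 lines: an F test in limma called 35 of 36, all but SEC24D (adjusted p = 0.193), against 51.9% of all genes. Among genes with a mean signal of at least 6 log2 it called 35 of 36, against 75.9% of such genes. The median range of line means was 1.62 log2 for the 36 genes and 1.02 for all genes. This test uses the spread between duplicate arrays, with 6 residual degrees of freedom, and takes the same spread for lines with 1 array.

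Each line of origin was then set against the mean of the other 7. Higher and lower calls together were also counted among genes with a mean signal of at least 6 log2, as all 36 are. Of the 36 genes 19 were then called in L1236, against 37.6% of such genes, 19 in Reh (31.2%), 16 in L428 (36.4%) and 12 in SU-DHL-4 (28.1%). In KM-H2 16 were called (41%), in HDLM2 16 (41.2%), in L540 14 (39.7%) and in Namalwa 14 (42.3%). These last shares, and that of SU-DHL-4, are near those of such genes. By direction, L1236 had the most rises and SU-DHL-4 and Reh the most falls. Counts by direction, and of highest and lowest lines, are set against all genes only, not against genes of at least 6 log2. L1236 had the highest of the 8 line means in 11 of 36 genes and the lowest in 0, against 2081 and 2843 of all 19775 genes. SU-DHL-4 had the lowest in 11 and the highest in 1, against 2492 and 2764 of all genes.

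In L1236, 16 of 36 genes were called higher, against 14.4% of all genes, and 2 were lower, against 10.6%. The 16 held 6 of 9 chaperones, among them HSPA5, HSP90B1, MANF and SDF2L1. The largest rises were DDIT3 at 1.67 ± 0.32 (SE), adjusted p = 0.00333, PPP1R15A at 1.67 ± 0.26 and HYOU1 at 1.46 ± 0.13. EIF2AK3 (-0.78 ± 0.21) and EDEM1 (-0.45 ± 0.13) fell, and each of these calls was lost in 4 alternatives. Without L1236 replicate 2, which leaves the line 1 array, fewer of these genes and fewer of all genes were called. DDIT3 was then higher by 1.32 and lost its call.

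In KM-H2, 11 genes were higher, against 15.2% of all genes, and 4 lower, against 12.9%. PDIA4 rose by 1.46 ± 0.16 (SE), adjusted p = 0.000101, SSR2 by 1.27 ± 0.11 and HSP90B1 by 1.16 ± 0.20. EDEM1 (-1.41 ± 0.13), ATF4 (-0.44 ± 0.15) and SSR3 (-0.39 ± 0.13), a subunit of the complex that holds SSR2, fell. The call of HSP90B1 was lost with its most variable probe set (adjusted p = 0.391 in limma), and those of ATF4 and SSR3 were lost in 13 and 11 alternatives. Without KM-H2 replicate 1 or 2, which leaves the line 1 array, fewer of these genes and fewer of all genes were called. Without either L428 array the 15 calls were 8, against 24.9% and 25.1% of all genes. With arrays centred on their medians, 8 were higher and 7 lower.

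In L428, 7 genes were higher, against 12% of all genes, and 9 lower, against 11.7%. PPP1R15A (1.47 ± 0.26 (SE), adjusted p = 0.00217), SEL1L (1.43 ± 0.13) and CRELD2 (1.14 ± 0.14) led the rises. EIF2AK3 (-1.54 ± 0.21), DNAJC3 (-1.39 ± 0.14) and ERN1 (-1.25 ± 0.27) led the falls, and ATF6 was also called lower. On the probe sets used, the mRNAs of all 3 sensors were thus low in the same line, but a second ATF6 probe set was lowest in SU-DHL-4. Without L428 replicate 1 or 2, which leaves the line 1 array, fewer of these genes and fewer of all genes were called. Without replicate 1, ERN1 (-1.09) and PPP1R15A (1.23) lost their calls.

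In HDLM2, 6 genes were higher, against 14% of all genes, and 8 lower, against 13%. EDEM1 rose by 1.79 ± 0.13 (SE), adjusted p = 5.7e-06, CANX by 0.78 ± 0.12 and ATF6 by 0.78 ± 0.15. TRIB3 (-1.83 ± 0.24), ERN1 (-1.32 ± 0.27) and CRELD2 (-1.25 ± 0.14) fell. DDIT3 and PPP1R15A were also called lower there. Other genes downstream of PERK did not all go this way: of 15 further PERK and ATF4 targets 4 were higher and 2 lower in HDLM2, with a median of -0.01. ATF3, 1 of the 15, was called higher by 2.22 ± 0.17 (SE). This was not particular to HDLM2, since ATF3 was called higher in every other Hodgkin line of origin, from 1.555 in KM-H2 to 2.615 in L428. Without HDLM2 replicate 1 or 2, which leaves the line 1 array, fewer of these genes and fewer of all genes were called. The calls of ERN1 (-1.005 without replicate 1) and of ATF6 (0.625 without replicate 2) were lost.

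The largest rises called in L540 leaned on the array of L540Cy. In L540 averaged with L540Cy, 9 genes were higher, against 11.8% of all genes, and 4 lower, against 13.8%. ERN1 (1.52 ± 0.27 (SE), adjusted p = 0.00221), PPP1R15A (1.36 ± 0.26) and TRIB3 (1.10 ± 0.24) rose, and SDF2L1 (-1.35 ± 0.19), SEC61B (-0.79 ± 0.12) and PDIA3 (-0.66 ± 0.17) fell. Without L540Cy, which leaves the line 1 array, ERN1 (0.74), PPP1R15A (0.04) and TRIB3 (0.11) lost their calls. Fewer of the 36 genes and fewer of all genes were then called. Not every rise leaned on L540Cy: SEC61A1 was 10.91 in L540 and 10.85 in L540Cy, and SSR1 was 12.74 in L540 and 12.80 in L540Cy. Without the array of L540, more of the 36 genes but fewer of all genes were called than with both. PDIA3 did not pass without L540Cy (adjusted p = 0.0974 in limma), without L540 (0.0707) or with its most variable probe set (0.118), and SEC61B did not with the mean of its probe sets (0.14).

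Set against L540 directly, L540Cy had the higher signal in 28 of 36 genes. PPP1R15A, which directs the phosphatase that restores translation, was 10.59 in L540Cy and 7.94 in L540, a 6.28-fold difference. TRIB3 was 12.16 in L540Cy and 10.17 in L540, and DDIT3 was 10.75 in L540Cy and 9.01 in L540. ERN1 was 8.71 in L540Cy and 7.14 in L540, and ATF4 was 13.31 in L540Cy and 12.47 in L540. Each line has 1 array, so these differences were not tested. For 12 genes L540Cy exceeded L540 by more than the largest difference between duplicates of that gene in the 6 duplicated lines, and for 2, PDIA6 and SPCS3, it was lower by more than that. SPCS3 rests on 1 probe set here, and its 2 other probe sets had L540 with L540Cy as their highest line of origin, unlike the one used. Of all genes, 19.8% differed between the 2 arrays by more than this measure. The 12 included HSPA5 (0.85), HYOU1 (0.79), DNAJC3 (0.96), DNAJB9 (0.76) and EDEM1 (0.60), but CALR, PDIA3 and HSP90B1 differed by at most 0.06.

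In Reh, 5 genes were higher, against 11% of all genes, and 11 lower, against 10.8%. EDEM1 (1.40 ± 0.13 (SE), adjusted p = 3.56e-05), EIF2AK3 (1.39 ± 0.21) and CREB3L2 (0.69 ± 0.20) rose. HYOU1 (-1.36 ± 0.13), MANF (-1.29 ± 0.21) and HERPUD1 (-1.10 ± 0.21) fell, and 5 of 9 chaperones were called lower. The rise of CREB3L2 is measured against a mean that holds SU-DHL-4, and over the 12 numbered arrays, without SU-DHL-4, it was -0.02. It also lost its call in 6 other alternatives. Without Reh replicate 2, which leaves the line 1 array, fewer of these genes and fewer of all genes were called. HERPUD1 (-0.81) then lost its call. Without Reh replicate 1, the array that stood apart, 4 were higher and 9 lower. With arrays centred on their medians, 2 were higher and 12 lower.

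In SU-DHL-4, 1 gene was higher, against 8% of all genes, and 11 lower, against 9.72%. EIF2AK3 rose by 1.60 ± 0.29 (SE), adjusted p = 0.00389. CREB3L2 (-5.00 ± 0.27), ERN1 (-1.66 ± 0.37) and HYOU1 (-1.60 ± 0.18) fell most, and CANX, HSP90B1, PDIA6, P4HB, SEL1L, EDEM1, SEC61A1 and SSR2 were also called lower. Its single array was assumed to vary like the duplicated lines. XBP1, the mRNA that IRE1 splices, was chosen after its values were seen, and was 6.72 in SU-DHL-4 and 8.77 to 11.78 in the 14 other arrays.

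In Namalwa, 6 genes were higher, against 11.3% of all genes, and 7 lower, against 16.5%. CREB3L2 (1.86 ± 0.20 (SE), adjusted p = 9.41e-05), ERN1 (1.71 ± 0.27) and DNAJB9 (0.86 ± 0.24) rose, and PPP1R15A (-1.38 ± 0.26), DDIT3 (-1.06 ± 0.32) and SPCS1 (-0.89 ± 0.14) fell. Without Namalwa replicate 1 or 2, which leaves the line 1 array, fewer of these genes were called. Of all genes, fewer were called without replicate 2 but more without replicate 1. DNAJB9 (0.68 without replicate 1 and 1.04 without replicate 2) was called in neither. DDIT3 was lost in 7 alternatives. Of the 36 genes 27 were higher in Namalwa replicate 1 than in replicate 2, the array with the low upper quartile. With quantile normalization 8 genes were higher and 4 lower in Namalwa.

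**Figure D4:**
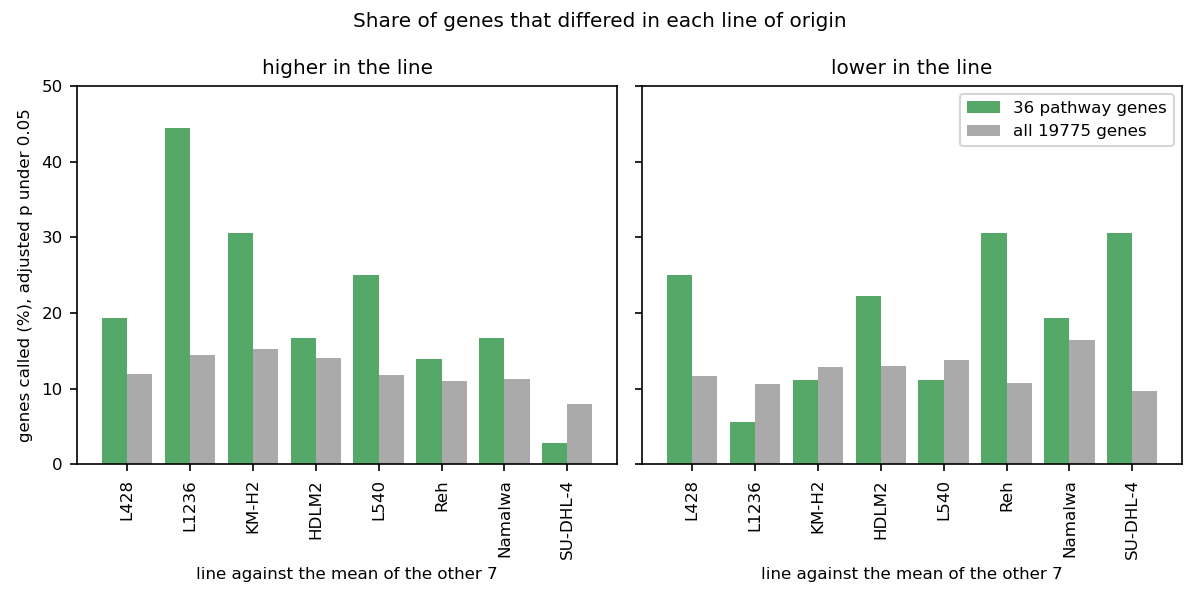
Green bars are the percent of the 36 genes called higher (left panel) or lower (right panel) in a line against the mean of the other 7, at an adjusted p under 0.05, and grey bars are the same for all 19775 genes. L1236 has the tallest green bar among the rises (16 of 36), and Reh and SU-DHL-4 the tallest among the falls (11 of 36 each).

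The genes with an ERSE or ERSE-II match can be followed as a group, as a description. Of these 9, 8 had a positive Hodgkin minus non-Hodgkin difference, with a median of 0.58 log2, and of the 24 other genes searched and measured 15 were positive, with a median of 0.13. Against the other lines, 6 of the 9 were called higher and 0 lower in L1236, where 8 of the 24 others were higher and 2 lower. In KM-H2 4 of the 9 were higher and 0 lower (7 and 4 of the 24), and in L428 4 were higher and 1 lower (3 and 8 of the 24). In HDLM2 2 of the 9 were higher and 1 lower (3 and 7 of the 24), and in L540 with L540Cy 0 were higher and 1 lower (9 and 2 of the 24). In Reh 1 of the 9 was higher and 5 lower (4 and 5 of the 24), and in Namalwa 0 were higher and 1 lower (6 and 5 of the 24). In SU-DHL-4 0 of the 9 were higher and 4 lower (1 and 7 of the 24). Of all genes, 8% to 15.2% were higher and 9.72% to 16.5% lower in a line.

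Line means of the members were also set against those of HSPA5 over the 8 lines of origin, as a description of lines that share arrays and normalization. MANF (r = 0.82), HYOU1 (0.82) and PDIA6 (0.76) were most like it, and SPCS2 (-0.77), EIF2AK3 (-0.69) and EDEM1 (-0.50) least. Of the 35 other genes 14 had r above 0.5, with a median of 0.37, against -0.04 for all genes. The median over all pairs of the 36 was 0.15. Chosen after the values were seen, DDIT3 varied with PPP1R15A (r = 0.88) and TRIB3 (r = 0.75), and EIF2AK3 ran opposite to HYOU1 (r = -0.91).

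Other genes of the pathway were counted from lists of 131 measured genes. Of these, 2 were called higher in Hodgkin lines and 0 lower, against 0.759% higher and 0.612% lower of all genes. Of the 131 differences 93 were positive, and the median was 0.22 log2, against -0.02 for all genes. ATF3, a stress-induced factor downstream of ATF4, rose by 5.05 ± 0.45 (SE), with adjusted p = 0.00271 in limma. It measured 11.34 and 11.15 in L428, 10.74 and 11.12 in L1236, 9.98 and 10.66 in KM-H2, 11.02 and 10.79 in HDLM2, 10.33 in L540 and 11.38 in L540Cy. Non-Hodgkin values were 6.98 and 7.06 in Reh, 5.44 and 5.29 in Namalwa and 5.04 in SU-DHL-4, so the classes did not overlap. Of the 131 genes, 16 had all 5 Hodgkin line means above all 3 others (5.17% of all genes). For 2 they lay below all 3 (5.5% of all genes). ERO1A, the oxidase that recharges disulfide isomerases, rose by 1.37 ± 0.23 (adjusted p = 0.0423), with Hodgkin arrays at 10.21 to 11.15 and non-Hodgkin arrays at 8.74 to 9.69. Among the lines, 44 of the 131 were called higher in L1236 (14.4% of all genes) and 17 lower (10.6%). In KM-H2 32 were higher (15.2% of all genes) and 21 lower (12.9%), and in L428 22 were higher (12%) and 9 lower (11.7%). In HDLM2 27 were higher (14%) and 20 lower (13%), and in L540 with L540Cy 34 were higher (11.8%) and 20 lower (13.8%). In Namalwa 17 were higher (11.3% of all genes) and 40 lower (16.5%), and in Reh 17 were higher (11%) and 36 lower (10.8%). In SU-DHL-4 5 were higher (8%) and 23 lower (9.72%).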

How the data were processed

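Gene expression was measured in 15 samples of established human lymphoid cell lines. The authors deposited one log2 signal for each probe set, computed with RMA (background correction, normalization between arrays, summary over probes), as the submitters' processing notes state. No version or setting of RMA is given in the sources used here. RMA compresses differences near the background, so changes of dim genes are understated, and the number of arrays limits the precision.

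Of 54675 probe sets, 62 controls, 1801 with several symbols and 11721 with none were left out. The 41091 with 1 symbol gave 19775 genes, and 41037 matched RefSeq. Arrays were averaged per line of origin, and Hodgkin lines were set against the others by limma (version 3.58.1, lmFit and eBayes, R 4.3.3) in a two-sided test. Lines were compared in a fit of all arrays with 1 mean per line. P-values were Benjamini-Hochberg adjusted over all genes, and called means an adjusted p under 0.05. P-values between lines measure the spread between duplicate arrays. The fits were tested on simulated data.

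The genes and lists were chosen with earlier results of these data known. By rule, values per array are given for HSPA5, HERPUD1, DNAJB9, ATF4, DDIT3, TRIB3, ERN1, EIF2AK3 and ATF6, for the 2 genes with the largest range of line means in each role group, and for called members; PPP1R15A was added after its values were seen. For each line up to 3 rises and 3 falls were named, and of the other pathway genes those called between the classes. Alternatives changed the probe set, the filter, the normalization, the variance model, and the arrays or lines used. Chosen after seeing the data were leaving out Reh replicate 1 with Namalwa replicate 2, and L540Cy or L540 in the line comparisons.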

Additional observations from a re-analysis of the deposited data

Results flagged for a closer look

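Among the 5 Hodgkin lines of origin 1 line mean lay far from the others in 4 of the 36 genes, by its gap to the nearest line divided by the range (critical value 0.71), and chance gives about 1 in 20. MANF was 11.41 in L1236, above the other 4 Hodgkin lines, and CREB3L2 was 7.97 in L1236, below them. PDIA4 was 11.21 in KM-H2, above the others, and SSR3 was 11.12 in KM-H2, below them.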

How the results depend on the processing

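Leaving out 1 line at a time or 1 array at a time called 0 to 1 of the 36 genes between the classes, SPCS1 without SU-DHL-4. A fit of arrays, in which the line was a random block, called 4 (EIF2AK3, HYOU1, CANX and SPCS1), where arrays and not lines set the error. The replicate block over the 12 numbered arrays called 2, HYOU1 and SPCS1. The replicate numbers were not taken to pair the arrays, since not every pair of lines deviated together: deviations of replicate 1 correlated from -0.07 to 0.355 between lines. Their median was 0.198, and EIF2AK3 and PDIA3 were lower and SSR2 and EDEM1 higher in replicate 1 of all 6 lines, so an effect shared by replicate number is not excluded. The F test over these arrays called 32 of the 36 genes with the replicate block and 31 without, and 10574 and 10054 of all genes. In Namalwa 18 of the 36 were called with the replicate block and 15 without. No gene was called between the classes by any of the other alternatives. Line counts with 1 array left out ran from 6 to 16 for L428, 7 to 19 for L1236, 5 to 17 for KM-H2, 8 to 16 for HDLM2, 7 to 18 for Reh and 7 to 15 for Namalwa, and the count for L540 was 4 without L540Cy. Of the named line differences, 950 values kept direction and call, 63 lost the call and 2 reversed: CREB3L2 in Reh was -0.022 with the replicate block and without it over the 12 arrays, neither of which holds SU-DHL-4. All genes called between the classes numbered 150 higher and 121 lower, and 68 to 599 higher and 69 to 475 lower over the alternatives.

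The sign between the classes changed for 14 uncalled genes, in 57 of the values over 32 alternatives, and the cause was not tested. With 1 array or line left out the differences ran, for ATF4 -0.149 to 0.153, DNAJB11 -0.243 to 0.184, SEC24D -0.182 to 0.181, SPCS3 -0.132 to 0.207, ERN1 -1.049 to 0.427, SDF2L1 -0.215 to 0.421, PDIA4 -0.181 to 0.374, EDEM1 -0.643 to 0.31, TRIB3 -0.438 to 0.203, DNAJC3 -0.003 to 0.448, CRELD2 -0.462 to 0.06, SSR3 -0.009 to 0.382, DNAJB9 -0.343 to 0.165, CREB3L2 -0.687 to 2.315. Probe set choice reversed SSR3 (-0.243 with the mean and -0.695 with the most variable probe set) and DNAJB9 (0.026 with the most variable one). Quantile normalization gave SEC24D -0.121, and centring on array medians gave SEC24D -0.091 and SPCS3 -0.043. L540 and L540Cy as 2 lines gave ATF4 0.016, SDF2L1 -0.089 and SEC24D -0.042, and leaving L540Cy out gave SEC24D -0.013. The B cell derived Hodgkin lines alone gave DNAJC3 -0.184 and CRELD2 0.177. The replicate block gave CREB3L2 -0.744, SSR3 -0.031 and SPCS3 -0.065. Leaving out Reh replicate 1 and Namalwa replicate 2 together gave DNAJB11 0.004, SEC24D -0.148 and SPCS3 -0.051.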
